A study of Mus musculus with 8 samples.

Results

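The ephrin, Slit-Robo and netrin guidance genes are the ligands and receptors through which growing axons read attractive and repulsive cues. They were taken by symbol, as every Eph receptor, ephrin, Slit, Robo, netrin, netrin-G and Unc5 gene of the count table together with Dcc and Neo1, and this gave 40 genes of the 16524 with at least 1 count (0.242%). RNA was sequenced from whole cortices of 4 Nuak1 knockout (KO) and 4 wild-type (WT) mouse embryos at E18.5, the last stage before birth, when KO pups die. The KO line is constitutive, on a C57Bl/6JRj background, so Nuak1, which encodes a kinase of the AMPK-related family, was disrupted in all cells of the embryo and not in neurons alone. The labels name no treatment in either genotype. The labels name 2 males among the KO and 1 male among the WT embryos, from 3 litters. The columns of the table carry only the genotype and a running number. Libraries are therefore called KO R1 to R4 and WT R1 to R4, and none is given a sex or a litter here. The cortex at this stage holds maturing neurons, interneurons, progenitors, glia and vessels. In such bulk tissue, fewer cells of a type and less RNA per cell cannot be told apart.

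Eph receptors are receptor tyrosine kinases, and ephrins are their membrane-bound ligands: ephrin-A proteins are anchored by a lipid and ephrin-B proteins span the membrane, so that contact between cells can signal in both. Slit proteins are secreted and bind Robo receptors, which mostly repel axons, as at the midline of the brain and spinal cord. Secreted netrins act through Dcc and Neo1, usually to attract, and through the Unc5 receptors, usually to repel. The netrin-G proteins are lipid-anchored relatives that bind partners at synapses and not Dcc or Unc5. In the developing cortex these systems are known to take part in guiding thalamic, callosal and corticofugal axons and in placing migrating neurons.

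Nuak1 itself had between 11.1 and 20.5 normalized counts in KO and between 877 and 1445 in WT, so every column followed its genotype. Totals lay between 9643711 and 27014858 counts per library. A pair of libraries stood apart. Meningeal fibroblast markers summed to 10640 normalized counts in KO R1, against 403 to 575 in the other KO libraries and 328 to 448 in WT, and upper-layer neuron markers summed to 17750 in WT R4, against 21446 to 21697 in the other WT libraries and 23790 to 26339 in KO. Calls that were lost without either library are named below. Of the 40 guidance genes, 38 passed the filter on low counts, among 12699 genes tested. The other two were Epha1, with raw counts of 1, 1, 0 and 0 in KO and 0, 0, 1 and 0 in WT, and Ntn5, with 4, 3, 1 and 3 in KO and 0, 0, 1 and 0 in WT. Neither entered the main comparison. In a fit without that filter, Ntn5 was among the genes called higher in KO.

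The stretches of coding sequence that family members share show how far reads could be mistaken between them. The longest exact runs that the genes described below share with another of the 40 genes, read from the annotated coding transcripts of NCBIM37, are:
Slit1 and Slit2: tagacctgagcaacaaccagat
Slit3 and Slit1: gaaaataaacctgagcaataa
Unc5c and Unc5b: tccaagaactgcactgatgggctgtgc
Epha6 and Epha3: ttggagcaggtgaatttggagaagt
Ephb1 and Ephb3: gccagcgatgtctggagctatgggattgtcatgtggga
The last, of 38 bases, was the longest in any pair, and no pair shared a stretch of the read length of 100 bases. Over whole transcripts of protein-coding genes, 3 of the 40 genes shared such a stretch with a gene outside the list, namely Efna5 with another gene model of the same name, Epha1 with Zyx and Ntn5 with Sec1. Of these 3, only Efna5 passed the filter on low counts, and it was not called. Exons of Ntn1, Ntn3 and Ntng2 also overlap those of another gene on the same strand, for Ntn3 those of Tbc1d24. Exons of Efna3, Efna4, Ephb4, Ntn3 and Unc5a overlap those of a gene on the opposite strand. How reads over these exons were counted is not given.

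Upstream sequence is shown for the genes that passed the unadjusted threshold in the full comparison and in each comparison with a library left out, to set what lies before their start sites beside the values. RefSeq gives 250 bases before the start for 33 of the 38 genes tested, on GRCm38.p6, a later build than that of the gene positions used elsewhere here. The windows of Unc5c (chr3:141465314-141465563, plus strand), Slit3 (chr11:35121206-35121455, plus strand) and Epha6 (chr16:60605532-60605781, minus strand) are written 5′ to 3′, with capitals for the GC box GGGCGG and the CCAAT box, on either strand. The fourth such gene, Slit1, had no entry.
Unc5c: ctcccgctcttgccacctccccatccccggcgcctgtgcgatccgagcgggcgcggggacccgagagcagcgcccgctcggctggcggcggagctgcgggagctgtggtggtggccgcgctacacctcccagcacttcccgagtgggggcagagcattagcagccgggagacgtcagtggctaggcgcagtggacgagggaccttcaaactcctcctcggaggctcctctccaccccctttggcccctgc
Slit3: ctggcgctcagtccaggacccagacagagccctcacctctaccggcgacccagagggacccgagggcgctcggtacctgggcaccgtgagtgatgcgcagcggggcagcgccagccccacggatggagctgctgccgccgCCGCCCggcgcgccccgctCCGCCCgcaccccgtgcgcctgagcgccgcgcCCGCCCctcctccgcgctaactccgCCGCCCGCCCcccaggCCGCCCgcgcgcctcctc
Epha6: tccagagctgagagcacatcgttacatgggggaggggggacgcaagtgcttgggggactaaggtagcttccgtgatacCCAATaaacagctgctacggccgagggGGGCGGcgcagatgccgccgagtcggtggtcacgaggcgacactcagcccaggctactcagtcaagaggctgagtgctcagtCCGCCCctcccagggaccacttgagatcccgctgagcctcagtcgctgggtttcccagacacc
Slit3 holds 6 GC boxes and 35 CpG pairs at a GC content of 78.8%, some of the boxes overlapping. Epha6 holds 2 GC boxes and 1 CCAAT box at 62.8%. Unc5c holds neither, at 71.2%. Over the 33 windows, 69.7% held a GC box, 39.4% a CCAAT box and 6.06% the TATA box TATAAA, against 61.0%, 36.4% and 5.92% of the windows of 8813 genes tested. These matches of letters are descriptions and do not show binding.

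Levels of the guidance genes in the WT cortex spanned from over 1000 to about 3 normalized counts per kb of exon. Neo1, a receptor for netrins and for repulsive guidance molecules, had the highest level, with 1279 ± 179 normalized counts per kb (SD, n = 4), and its WT range did not overlap that of the next gene. Behind it came Ephb6, an Eph receptor without kinase activity, with 548, then the ligand Efnb3 with 527, Robo1 with 522, Epha4 with 458, Epha5 with 406, Ntng2 with 397, Robo2 with 394 and Slit1 with 361 normalized counts per kb. The WT ranges of these neighbours overlapped each other. Summed by family, the 4 Robo receptors had 766.5 to 1108 normalized counts per kb over the WT libraries and their 3 Slit ligands 367 to 468.6, so that these sums did not overlap. Secreted netrins were at the low end, with 3.22 normalized counts per kb for Ntn1 and 3.0 for Ntn3, while Ntn4 reached 52.3. Unc5c, at 26.2 ± 6.61 in WT, and Slit3, at 25.7 ± 15.1, belonged to the lower part of the order.

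**Figure D1:**
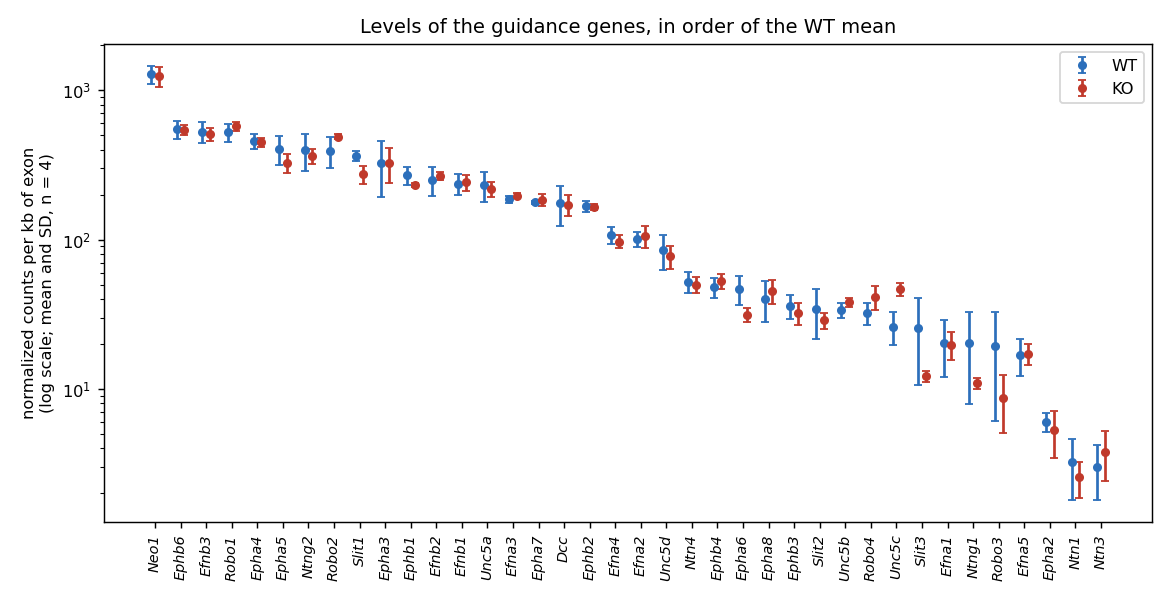
Level of each of the 38 guidance genes tested, in normalized counts per kb of exon on a log axis, ordered by the WT mean. Points are means and bars are SDs over 4 libraries of WT (blue) and KO (red). Neo1 lies above all others at 1279 in WT, and the red points lie apart from the blue ones for, among others, Slit1, Epha6 and Unc5c.

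Between genotypes, 6 of the 38 genes were lower in KO and 1 was higher, each with an unadjusted p under 0.05 in edgeR. The 6 are the ligands Slit1, Slit3 and Ntng1 and the receptors Epha6, Ephb1 and Robo3, and the gene that was higher is the netrin receptor Unc5c. The share passing was 18.4%, where 7.69% of all genes tested passed. Split by direction, 15.8% of the guidance genes were lower, where 3.18% of all genes were, and 2.63% were higher, where 4.51% of all genes were. The second of these comparisons turned with the fit: with DESeq2, its size factors in edgeR, a minimum of 10 counts in every library or the length trend removed, Robo2 and Robo4 joined Unc5c, and 7.89% to 8.33% of the guidance genes were higher, where 4.47% to 5.0% of all genes were. With an absolute log2 fold change over 0.25 required as well, 6 guidance genes passed and 4.25% of all genes did, since the change of Ephb1 was smaller than that. None had an adjusted p under 0.05 with edgeR, where 7 passed the unadjusted threshold and 0.0709% of all genes passed the adjusted one, and the lowest adjusted p was 0.18, of Unc5c. With DESeq2, 2 of them, Slit1 and Unc5c, passed after Benjamini-Hochberg adjustment, where 0.543% of all genes did. These were also the only guidance genes tested whose KO and WT libraries did not overlap, 5.26% of the 38, where 4.49% of all genes did not overlap. Most genes lay near no difference, as the median log2 fold change was -0.04 for the guidance genes and -0.01 for all genes, with 24 guidance genes below 0 and 14 above.

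**Figure D2:**
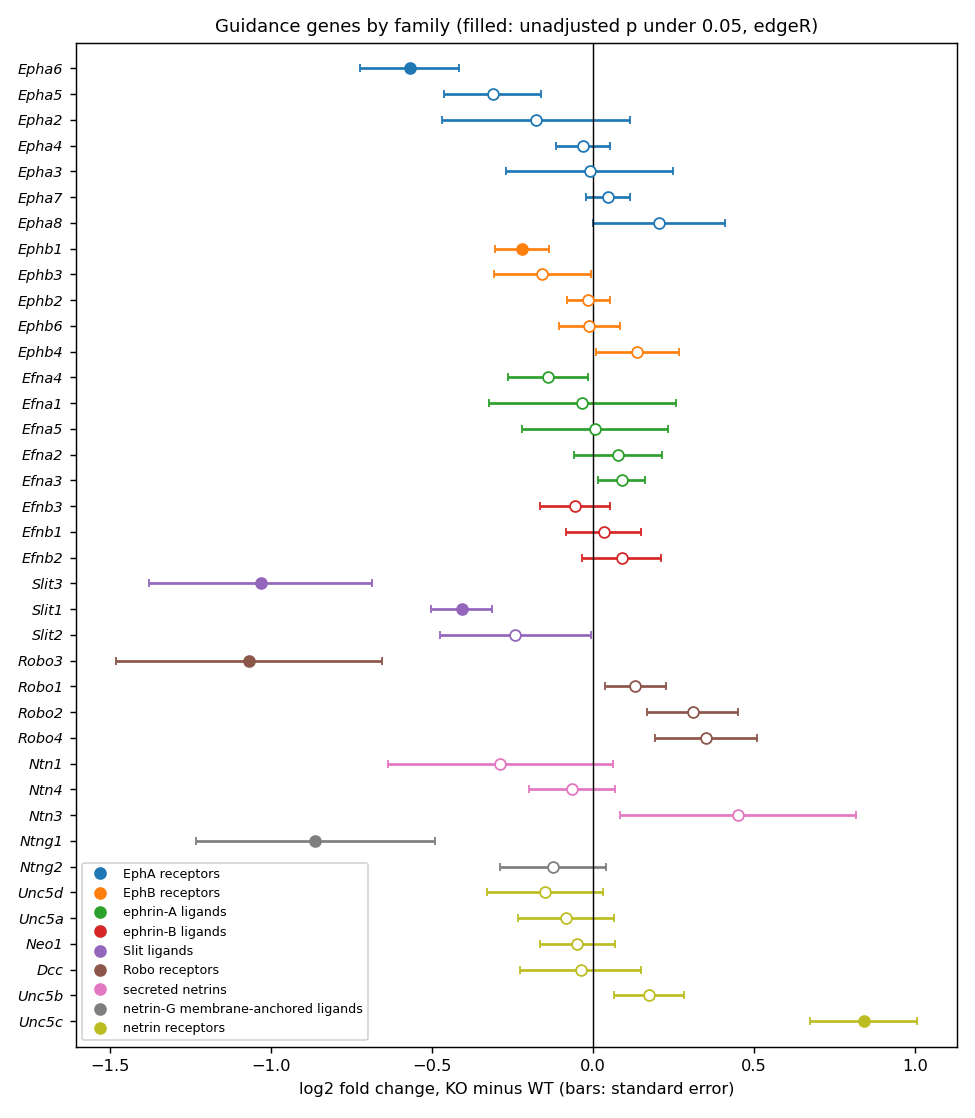
Log2 fold change of each guidance gene, KO minus WT, from edgeR, with bars for the standard error and colours for the 9 families. Filled points have an unadjusted p under 0.05: 6 lie to the left of 0 and Unc5c alone lies to the right, and all points of both ephrin families lie between -0.14 and 0.09.

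Of the 3 Slit ligands, 2 were lower in KO, and no Slit lay above 0. Slit1, a secreted repellent of the forebrain and the most abundant Slit in these cortices, lies on chromosome 19 of NCBIM37 from 41674747 to 41818155 on the minus strand. It had 1462, 1926, 1420 and 1651 normalized counts in KO R1 to R4 and 2145, 2004, 2366 and 2040 in WT R1 to R4. Every KO library lay below every WT library. The means were 1615 ± 231 in KO and 2139 ± 163 in WT (SD, n = 4), which gave a log2 fold change of -0.41 (standard error, SE, 0.09), with an unadjusted p = 0.00118 and, after Benjamini-Hochberg adjustment, an adjusted p = 0.307 in the quasi-likelihood test of edgeR. A 2-sided exact permutation test over the libraries gave p = 0.0286, the smallest that 4 against 4 allows. The lack of overlap fixes that value, so it adds nothing to it. DESeq2 gave an adjusted p of 0.0155, and over all alternatives the adjusted p lay between 0.0155 and 0.833.

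Slit3, on chromosome 11 of NCBIM37 from 34934726 to 35522009 on the plus strand, is the Slit more often studied outside the nervous system, in vessels and muscle. Its normalized counts were 69.2, 66.9, 80.4 and 77.6 in KO and 134, 65.7, 140 and 284 in WT. The KO libraries were close together, whereas WT R4 was far above the rest and WT R2 was below all of them. The log2 fold change was -1.03 (SE 0.35, unadjusted p = 0.0123, adjusted p = 0.551, edgeR). Without WT R4 it was -0.58 with an unadjusted p of 0.0302 from edgeR, and without both WT R4 and KO R1 it was -0.55 with 0.0559.

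Slit2, which acts with Slit1 in keeping forebrain axons in their tracts, had 407, 511, 400 and 416 normalized counts in KO and 477, 267, 692 and 627 in WT. The genotypes overlapped through WT R2. Its log2 fold change of -0.24 (SE 0.23) did not pass (unadjusted p = 0.324, edgeR), but without WT R2 it was -0.47 with an unadjusted p of 0.00591, without WT R3 it was -0.06, and without WT R4 -0.13. Summed per kb, the 3 Slit genes had 279.6 to 370.2 normalized counts per kb in KO and 367 to 468.6 in WT. These ranges overlapped only at their ends. Slit1 made up most of each sum, with means of 273 in KO and 361 in WT, where the sums had 314 and 421.

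Robo receptors did not move together. Robo3, which in crossing axons counters repulsion by the other Robo receptors, was lower in KO. The values of the other 3, none of them called in the main edgeR fit, were above WT. Some other fits with all 8 libraries called Robo2 and Robo4 higher in KO. Robo3 lies on chromosome 9 of NCBIM37 from 37223254 to 37240760 on the minus strand, next to Robo4 from 37209482 to 37221608 on the plus strand, and their exons do not overlap. Its normalized counts were 44.8, 44.1, 52.0 and 96.5 in KO and 106, 83.2, 71.3 and 265 in WT. WT R4 held the highest value by a wide margin, and KO R4 lay within the range of WT. The log2 fold change was -1.07 (SE 0.41, unadjusted p = 0.0252, adjusted p = 0.612, edgeR). Without WT R4 it was -0.51 with an unadjusted p of 0.0945, and without both WT R4 and KO R1 -0.39 with 0.187, and the call was also lost when KO R1, R2 or R3 was left out.

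Robo1 and Robo2 are the main Robo receptors of cortical neurons. Robo1 had 5131, 5352, 6052 and 5323 normalized counts in KO and 5866, 4986, 4987 and 4108 in WT, a log2 fold change of 0.13 (SE 0.10, unadjusted p = 0.197, edgeR). Robo2 had 8023, 7752, 8562 and 8003 in KO and 7236, 8121, 6241 and 4459 in WT, a log2 fold change of 0.31 (SE 0.14, unadjusted p = 0.0522, edgeR). For both, WT R4 was the lowest of the 8 libraries, and without it the value of Robo1 was 0.06 and that of Robo2 0.17 (unadjusted p = 0.0563 for Robo2, edgeR). DESeq2 called both Robo2 and Robo4 higher in KO, at an unadjusted p = 0.0247 and an unadjusted p = 0.0473. Robo4, the Robo of vessel endothelium, had 213, 138, 171 and 156 normalized counts in KO and 163, 122, 132 and 111 in WT, a log2 fold change of 0.35 (SE 0.16, unadjusted p = 0.0504, edgeR). KO R1 was highest. In the same library endothelial markers summed to 5885 normalized counts, against 3955 to 4674 in the other KO libraries and 3888 to 4359 in WT. Without KO R1 the value of Robo4 was 0.23 (unadjusted p = 0.151, edgeR). In the fit with all 8 libraries, 10 of the 11 endothelial markers tested had a log2 fold change above 0, 2 of them called. The median of those markers, 0.24 on the log2 scale, was 0.09 without KO R1. Whether those vessel markers play a part in the value of Robo4 was not tested.

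Netrin receptors held the guidance gene with the lowest p. Unc5c, a receptor that turns the response to netrin into repulsion, lies on chromosome 3 of NCBIM37 from 141128528 to 141497888 on the plus strand. It had 496, 569, 573 and 625 normalized counts in KO and 348, 203, 390 and 333 in WT, and every KO library lay above every WT library. The means were 566 ± 53.0 in KO and 319 ± 80.5 in WT (SD, n = 4), a log2 fold change of 0.84 (SE 0.17, unadjusted p = 0.000369, adjusted p = 0.18, edgeR). The 2-sided exact permutation test again gave p = 0.0286, its smallest value, which the lack of overlap fixes. DESeq2 gave an adjusted p of 0.000533, and the range over all alternatives ran from 0.000533 to 0.603. In levels per kb, Unc5c stood at 46.5 ± 4.35 in KO and 26.2 ± 6.61 in WT (SD, n = 4).

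The other five receptors of netrin did not pass. Neo1, the most abundant, had 7682, 10836, 8448 and 9564 normalized counts in KO and 9037, 7820, 10889 and 10045 in WT, a log2 fold change of -0.05 (SE 0.12). Dcc, the main attractive receptor, had 1590, 1098, 1529 and 1311 in KO and 1733, 1818, 1000 and 1100 in WT, a log2 fold change of -0.04 (SE 0.19). In both genes the libraries of a genotype differed more among themselves than the genotypes did. Among the relatives of Unc5c, the log2 fold changes were -0.09 for Unc5a, 0.17 for Unc5b and -0.15 for Unc5d, with p between 0.138 and 0.581 from edgeR.

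Secreted netrins gave no call. Ntn4, a netrin of basement membranes, was the most abundant, with 218, 176, 191 and 163 normalized counts in KO and 167, 184, 239 and 193 in WT, and a log2 fold change of -0.07 (SE 0.13). Ntn1, the founding axon attractant, had only 12.8 to 22.3 normalized counts in KO and 10.6 to 30.8 in WT, so that its log2 fold change of -0.29 had an SE of 0.35. For Ntn3 the value was 0.45 with an SE of 0.37. The SEs of Ntn1 and Ntn3 were nearly as large as the change of Slit1, a log2 fold change of -0.41. Which differences could be detected at such depths was not tested.

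Of the netrin-G genes, Ntng1, which marks thalamic and other afferent axons and binds the NGL-1 protein on dendrites, was lower in KO. It lies on chromosome 3 of NCBIM37 from 109582958 to 109938426 on the minus strand, and had 48.7, 53.2, 45.8 and 43.8 normalized counts in KO and 56.5, 38.6, 102 and 160 in WT. WT R3 and R4 were high and WT R2 was the lowest of all libraries. The log2 fold change was -0.86 (SE 0.37, unadjusted p = 0.0402, adjusted p = 0.633, edgeR), and without WT R4 it was -0.43 with an unadjusted p of 0.162. Thalamic neuron markers, 7 of which were tested, stood at a median of 0.10 on the log2 scale with none called, and they summed to 1929 to 2046 normalized counts in KO and 1771 to 2029 in WT. Ntng2, found on cortical neurons themselves, had 1263, 1671, 1378 and 1460 in KO and 1344, 1159, 2157 and 1645 in WT, a log2 fold change of -0.12 (SE 0.16).

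Eph receptors and ephrins made up 20 of the genes tested, and 2 receptors were lower in KO while no ephrin was called. That was 10.0% of the 20, where 7.69% of all genes tested passed in either direction and 3.18% were lower. Epha6, a receptor of ephrin-A ligands on subsets of forebrain neurons, lies on chromosome 16 of NCBIM37 from 59653309 to 60605357 on the minus strand. Its normalized counts were 156, 190, 168 and 151 in KO and 225, 186, 271 and 311 in WT. Only WT R2 lay within the KO range. The log2 fold change was -0.57 (SE 0.15, unadjusted p = 0.00362, adjusted p = 0.440, edgeR), and -0.44 with an unadjusted p of 0.00832 without WT R4. Ephb1 is the receptor that sends some axons away from the midline on meeting ephrin-B2. It lies on chromosome 9 of NCBIM37 from 101824458 to 102257023 on the minus strand. It had 1558, 1492, 1467 and 1476 in KO and 1800, 1717, 2003 and 1451 in WT. Here WT R4 was the exception, lying below all KO libraries, so the log2 fold change of -0.22 (SE 0.08, unadjusted p = 0.0229, adjusted p = 0.611, edgeR) became -0.29 with an unadjusted p of 0.000506 without it. Without WT R3 it was -0.14 with 0.0861. Exons of Epha6 and Ephb1 overlap those of Gm9017 and Gm17708 on the opposite strand, and the strand setting of the counting is not given in the sources used here, so reads of these pairs may not be told apart.

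Ephb6 and Epha4, the Eph receptors with the highest WT means per kb, showed little difference. Epha4, known for repelling axons at the midline of the spinal cord and in the forebrain, had 3029, 2563, 2902 and 2873 normalized counts in KO and 3138, 3240, 2689 and 2534 in WT, a log2 fold change of -0.03 (SE 0.08). Ephb6 had 2042, 1831, 2093 and 2220 in KO and 2303, 2082, 1671 and 2209 in WT, a log2 fold change of -0.01 (SE 0.10). Among the Eph receptors not called in the main fit, Epha5, a receptor of hippocampal and cortical axons, lay farthest from 0, with 2801, 3869, 3402 and 3031 normalized counts in KO and 3901, 2891, 4919 and 4582 in WT, a log2 fold change of -0.31 (SE 0.15, unadjusted p = 0.0614, edgeR). DESeq2 called Epha5 lower (unadjusted p = 0.0377), as did edgeR without the filter on low counts (unadjusted p = 0.0486). The other Eph receptors tested lay between -0.18 (Epha2) and 0.21 (Epha8).

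All 8 ephrins lay within -0.14 and 0.09 on the log2 scale in the main fit, and their lowest adjusted p there was 0.827 from edgeR. With a library left out, only Efnb2 passed, at 0.25 without WT R3 (unadjusted p = 0.00432, edgeR). Efna3, the most abundant ephrin-A, had 482, 450, 498 and 488 normalized counts in KO and 481, 416, 448 and 463 in WT, a log2 fold change of 0.09 (SE 0.07). Efnb3, a midline barrier to axons and the most abundant ephrin-B, had 1584, 1834, 1508 and 1522 in KO and 1553, 1371, 1778 and 2010 in WT, a log2 fold change of -0.06 (SE 0.11). In sums per kb, the ephrin-A genes had 437 ± 25.7 in KO and 430 ± 13 in WT and the ephrin-B genes 1015 ± 60.9 and 1014 ± 124 (SD, n = 4). The SE of single ephrins lay between 0.07 and 0.29.

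**Figure D3:**
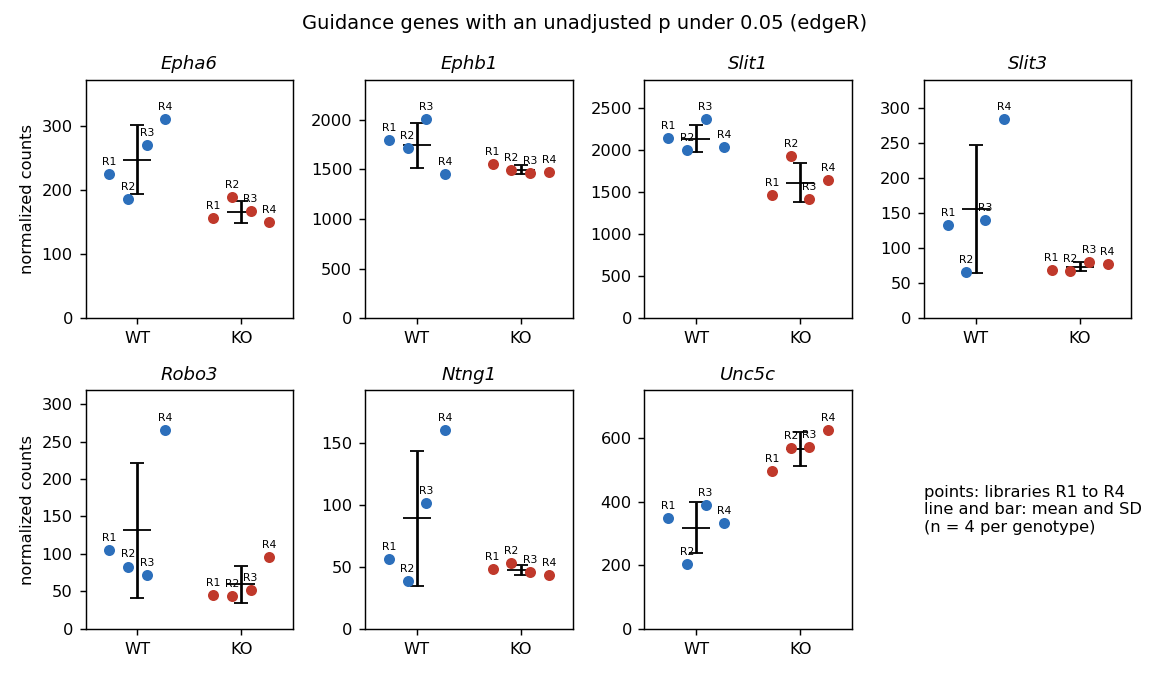
Normalized counts of the 7 guidance genes with an unadjusted p under 0.05 in each library, with WT in blue and KO in red, the horizontal line for the mean and the bar for the SD (n = 4). The genotypes are separate for Slit1 and Unc5c, and WT R4 stands far above the others for Slit3 (284), Robo3 (265) and Ntng1 (160).

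Leaving out each library in turn separated the 7 genes. Slit1, Slit3, Epha6 and Unc5c kept an unadjusted p under 0.05 in 8 of 8 such fits with edgeR, with log2 fold changes from -0.50 to -0.35, from -1.30 to -0.58, from -0.69 to -0.44 and from 0.67 to 0.96. Robo3 kept it in 4 of 8, losing it without KO R1, R2 or R3 or WT R4, at p from 0.0600 to 0.0945. Ephb1 also kept it in 4 of 8, losing it without KO R3, KO R4, WT R1 or WT R3, at p from 0.0505 to 0.0861. Ntng1 kept it in 2 of 8, those without WT R1 and without WT R2. Conversely, some genes not called in the main fit passed with a library left out. Among them, Robo2 and Epha5 passed without WT R2, with log2 fold changes of 0.43 and -0.45 (unadjusted p = 0.00791 and 0.00249, edgeR). With KO R1 and WT R4 both left out, a choice made after seeing the data, 4 guidance genes were lower (Slit1, Epha6, Ephb1 and Unc5d) and 3 higher (Unc5c, Epha7 and Epha8), while 5.24% and 5.91% of all genes were. Of the 7 genes, Slit1, Epha6, Ephb1 and Unc5c were thus also called without both libraries, where Slit3 was not. Of these 4, Ephb1 had lost its call in 4 of the 8 fits with a library left out.

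**Figure D4:**
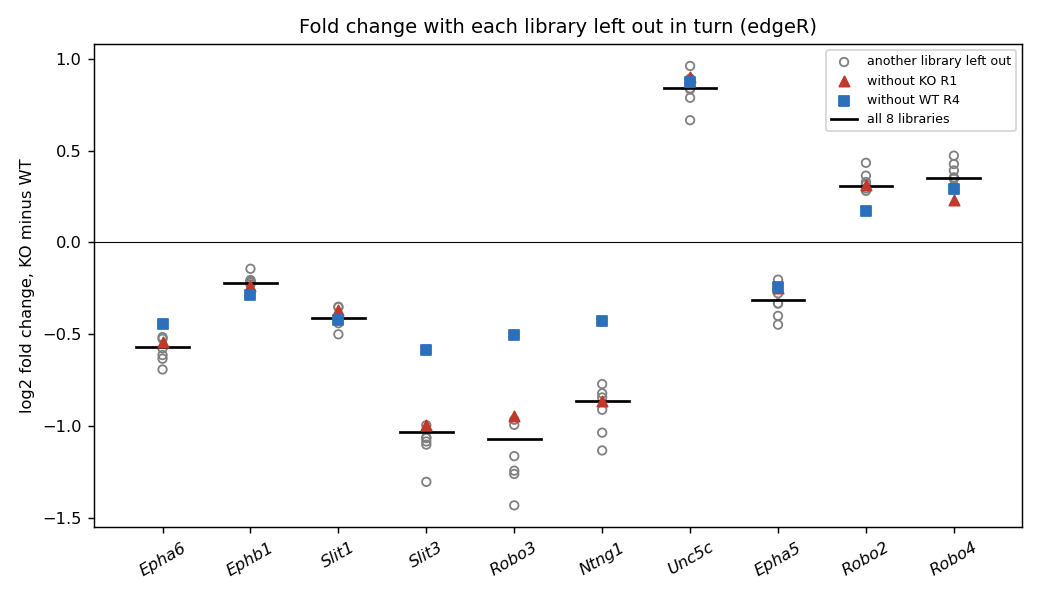
Log2 fold changes from edgeR for the 7 guidance genes called and the 3 nearest to the threshold, with all 8 libraries (line) and with each library left out (points). Without WT R4 (blue squares) the values of Slit3, Robo3 and Ntng1 move to -0.58, -0.51 and -0.43, while those of Slit1 and Unc5c hardly move.

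The libraries also differed among themselves in a way that touched many guidance genes. WT R2 had the lowest normalized count of the 8 libraries in 14 of the 38 genes (36.8%), among them Slit2, Slit3, Ntng1 and Unc5c, whereas it was lowest in 13.2% of all genes. WT R3 was highest in 12 (31.6%, against 18.2% of all genes), including Slit1, Slit2, Epha3, Epha5 and Ephb1. WT R4 was highest in 9 (23.7%, against 21.4%). The coefficient of variation was larger in WT than in KO in 32 of the 38 genes, with medians of 20.1% and 12%, where 61.3% of all genes had a larger one in WT and their medians were 10.2% and 8.18%. No litter or sex is given for these libraries.

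**Figure D5:**
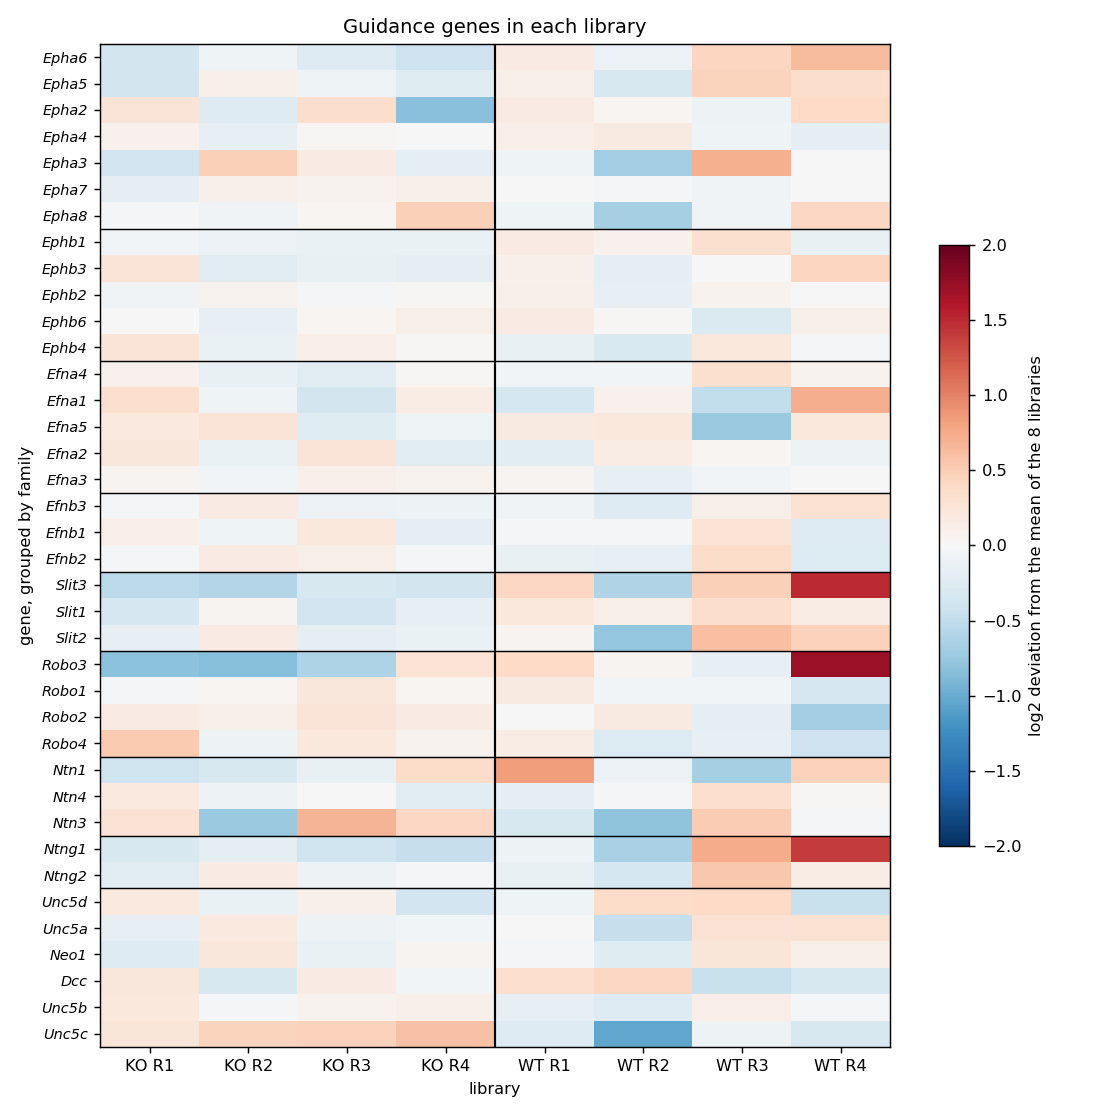
Log2 deviation of each guidance gene from its mean over the 8 libraries, from blue (lower) to red (higher), with families separated by lines and KO on the left. Unc5c is red across KO and blue across WT, WT R4 is dark red for Slit3, Robo3 and Ntng1, and WT R2 is blue for 14 genes in which it is the lowest library.

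Markers of the cell types in the tissue moved as well. Upper-layer neuron markers were above 0 in 8 of 8 genes, with a median of 0.28 on the log2 scale and 4 called, and their sums were 23790 to 26339 normalized counts in KO and 17750 to 21697 in WT. Deep-layer markers had a median of -0.18, with 3 lower and 1 higher, and sums of 9143 to 11116 in KO and 10543 to 12592 in WT. Interneuron markers were below 0 in all 8 genes, with a median of -0.14, which was -0.06 without WT R4, and 1 lower, and sums of 2667 to 2975 in KO and 2739 to 3657 in WT. Meningeal fibroblast markers were higher in all 6 that passed the filter, with a median of 2.93 that was 0.37 without KO R1. In the remaining lists tested, those of progenitors, microglia, oligodendrocyte precursors, striatal neurons, thalamic neurons and Cajal-Retzius cells, medians lay between -0.13 and 0.16 and 1 gene was called. Those medians lay between -0.17 and 0.34 without KO R1, where the striatal one was 0.34 and the microglial one 0.0067 in place of 0.15, and between -0.19 and 0.29 without WT R4. In no list was a marker at 0 in every library. Their part in the values of the guidance genes was not tested.

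The other genes of these pathways, adaptors, exchange factors and proteases downstream of or beside the receptors, were 83 by list, of which 78 were tested. In KO, 5 of these were lower and 4 higher by edgeR at the same unadjusted threshold (11.5%, where 7.69% of all genes passed), and none after adjustment. Among 27 genes of Eph and ephrin signalling, 3 were lower: Sipa1l1 (log2 fold change -0.37, unadjusted p = 0.00406), which binds EphA4 and acts on Rap, and the exchange factors Kalrn (-0.18, unadjusted p = 0.0187) and Itsn1 (-0.18, unadjusted p = 0.0383), which act at EphB receptors. In the same list 2 were higher, the phosphatase Ptpro (0.43, unadjusted p = 0.0272), which removes phosphate from Eph receptors, and Sdcbp (0.21, unadjusted p = 0.0313), a scaffold that binds ephrin-B.

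Among 17 genes of Slit and Robo signalling, only Enah, an actin regulator bound by Robo1, was called, and it was lower (log2 fold change -0.19, unadjusted p = 0.0282, edgeR). Among 23 of netrin signalling, Dscaml1 was lower (-0.21, unadjusted p = 0.00754, edgeR), while Trim67, a relative of the netrin-linked ubiquitin ligase Trim9, was higher (0.28, unadjusted p = 0.00162, edgeR) and so was Ablim1, an actin-binding protein (0.22, unadjusted p = 0.0191, edgeR). Trim67 had 2746, 2712, 2879 and 3208 normalized counts in KO and 2570, 2237, 2424 and 2301 in WT, with every KO library above every WT library, and DESeq2 gave it an adjusted p of 0.0302, within a range of 0.0302 to 0.835 over all alternatives. Kalrn was the other gene whose genotypes did not overlap. That made 2 of the 78 pathway genes tested (2.56%), where 4.49% of all genes tested did not overlap. Sipa1l1, Dscaml1 and Trim67 passed the unadjusted threshold in 8 of 8 fits with a library left out, and the other six lost it in 1 to 6 of them.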

How the data were processed

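RNA of 4 Nuak1 KO and 4 WT cortices was prepared with a stranded mRNA kit and sequenced by the authors in paired reads of 100 bases. They trimmed reads with Cutadapt 1.13, used TopHat2 2.0.13 with SAMtools 0.1.19 for mapping to mm9 and HTSeq-count for counting per gene, and deposited the whole-number counts without normalization. The annotation and strand setting of the counting are not given in the sources used here.

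Genes were tested with edgeR 4.0.16 in R 4.3.3 (TMM, filterByExpr, quasi-likelihood test on genotype, Benjamini-Hochberg adjustment over all 12699 genes), after a test on simulated data. The standard error (SE) was the absolute log2 fold change over the root of F. For normalized counts, each library was scaled to the mean TMM-adjusted total. Total counts of 9643711 to 27014858 per library limit the precision of genes of low level. Between libraries of a genotype, chi-square over its degrees of freedom was at least 5.73, so no library was a copy of another.

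Lists of ligands, receptors, pathway genes and markers were chosen with earlier results of these data known. Values in every library are given for guidance genes with an unadjusted p under 0.05 or without overlap, for the most abundant of each family and for Nuak1; other pathway genes are named at an unadjusted p under 0.05. Slit2, Robo2, Robo4, Epha5, Dcc and Trim67 have such values beyond this rule, chosen after they were seen. Lengths and positions come from GENCODE vM1 on NCBIM37, the assembly behind mm9. Alternatives were DESeq2 1.42.0, its size factors, other filters, removal of the length trend and each library left out, and, chosen after seeing the data, KO R1 and WT R4 both left out and robust dispersions. Separate embryos are named in the labels, but their litters could not enter the fit.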

Additional observations from a re-analysis of the deposited data

Results flagged for a closer look

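In groups of 4 libraries, a value was singled out where its gap to the nearest other exceeded Dixon's 95% limit for 4, as a share of the range. Of 134 groups examined, 8 exceeded it, and chance alone gives about 1 in 20, or 6.7. Efna5 had 39.6 normalized counts in WT R3, below the other WT libraries. Epha7 had 1562 in KO R1, below the other KO libraries, and Ephb3 had 252 in KO R1, above them. Robo3 had 96.5 in KO R4 and Slit2 had 511 in KO R2, each above the other KO libraries. Kalrn had 5708 in WT R3, above the other WT libraries. Summed meningeal fibroblast markers stood at 10640 normalized counts in KO R1, and summed upper-layer neuron markers at 17750 in WT R4, below the other WT libraries.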

How the results depend on the processing

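No paired analysis was possible because the labels and column names tie no library to a litter, an embryo or a sex. The sex of a library was not read from its counts. Fits with a litter block or a sex term were not run. The number of guidance genes higher in KO, 1, was 3 with DESeq2, its size factors, a minimum of 10 counts, the length trend removed and KO R1 with WT R4 left out, 4 without a filter and 2 with robust dispersions, and it ranged from 1 to 4 with 1 library left out. Over all these fits, 2.91% to 7.19% of all genes were higher. The number lower, 6, was 7 with DESeq2 and without a filter, and 4 without KO R1 and WT R4. It ranged from 3 (without KO R3) to 9 (without WT R2) with 1 library left out. The share of all genes lower ran from 1.97% (without KO R3) to 5.46% (without WT R4), and was 5.24% without KO R1 and WT R4. With a log2 fold change over 0.25 as well, 6 became 10 without a filter and 9 with DESeq2, and 4 (without KO R1) to 9 (without WT R2). For this threshold the share of all genes is given for the main fit alone, at 4.25%. Past an adjusted p of 0.05, 0 became 2 with DESeq2 and stayed 0 in the other fits. Without overlap, 2 became 5 without KO R1 and WT R4 and ranged from 2 to 7 (without WT R2), while the share of all genes without overlap went from 4.49% to 16.5% without both libraries, above the 13.2% of guidance genes there, and to 8.93% without WT R2. The number of other pathway genes called, 9, ranged from 5 (without KO R4, and without WT R3) to 10. The share of all genes called ran from 5.11% (without WT R3) to 12.6% (without WT R4). The cause was not tested. No change of sign below had a p under 0.05. Epha3 turned to 0.00034 without a filter, 0.013 with the length trend removed and 0.094 without KO R1 and WT R4, and Ephb2 to 0.016 with the length trend removed and 0.0049 without the 2 libraries. Without those libraries, the values were 0.12 for Efna1, -0.011 for Efna5, -0.066 for Efnb1, 0.049 for Efnb3, 0.026 for Ephb6, 0.059 for Neo1 and 0.046 for Unc5a. Leaving out each library gave -0.17 to 0.11 for Dcc, -0.17 to 0.24 for Efna1, -0.0074 to 0.16 for Efna2, -0.17 to 0.10 for Efna5, -0.036 to 0.14 for Efnb1, -0.14 to 0.046 for Efnb3, -0.39 to 0.043 for Epha2, -0.20 to 0.29 for Epha3, -0.082 to 0.027 for Epha4, -0.070 to 0.026 for Ephb2, -0.094 to 0.045 for Ephb6, -0.14 to 0.032 for Neo1, -0.51 to 0.016 for Ntn1, -0.14 to 0.050 for Ntn4, -0.25 to 0.072 for Ntng2, -0.23 to 0.0084 for Unc5a. The length trend was removed over the 12270 genes with a length.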

Other observations

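The guidance genes are long. Their median span on NCBIM37 was 125 kb and 20 of 38 (52.6%) exceeded 100 kb, against 26.1 kb and 16% of all genes tested with a position. Ephrins were the short ones, with medians of 9.41 kb for ephrin-A and 12.9 kb for ephrin-B genes, and the Slit genes, at 143 to 587 kb, were among the long ones. The 7 genes called had a median span of 369 kb, and 6 of them exceeded 100 kb. With the trend of each library with exonic length removed, 6 guidance genes were lower (15.8%, against 2.98% of all genes) and 3 higher (7.89%, against 4.47%). Exonic length is not the span: its medians were 5.47 kb for the guidance genes tested and 3.91 kb for all genes tested. Whether the span plays a part was not tested. Efna2, Ntn4 and Unc5b lie on chromosome 10 with Nuak1, and none of them was called.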
